A study of Homo sapiens with 6 samples.

Results

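Immediate early genes and MAP kinase phosphatases were examined through 10 genes taken by symbol from the gene table: the phosphatases DUSP1, DUSP4 and DUSP6, the transcription factors FOS, JUN, JUND and EGR1, and the early response genes IER2, IER3 and PHLDA1. Of these, 9 were among the 11844 genes listed, and DUSP6 was not listed. Expression was compared between stable sublines of C4-2B, a prostate cancer cell line of the LNCaP lineage, that carried the pcDNA 3.1 vector with LINC00888, a long noncoding RNA, or pcDNA 3.1 alone, with 3 libraries in each group. Both groups grew in RPMI1640 with 10% fetal bovine serum, and the labels record no stimulation, starvation or time course. Overexpression was measured by qRT-PCR per the labels (15.27-fold), and LINC00888 itself was not listed in the gene table. Separate cultures, and the number of clones in a subline, are not recorded, so the p-values cover only library-to-library spread, which may be technical, and any other difference between the sublines cannot be told apart from the insert.

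Immediate early genes are transcribed within minutes of a growth factor or stress signal, without new protein synthesis, and many of their transcripts are short-lived. The kinases ERK, JNK and p38 carry such signals to the nucleus, where serum response factor and its ETS partners, CREB and AP-1 dimers of JUN and FOS proteins switch the genes on. Several DUSP phosphatases are early genes too, and those that act on MAP kinases end the signal by removing the activating phosphates from the kinases. In the prostate, EGR1 is known for high levels in tumours.

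The windows before the starts of the members differ in their letter matches to motifs of such elements, and 4 windows are shown. They are those of DUSP1, JUN and PHLDA1, which passed the test between groups, and of EGR1, the classical serum response gene. Each is the 250 bases before the start annotated by RefSeq on GRCh38.p14, written in the direction of transcription. Capitals mark matches on either strand to TGANNTCA, TGANTCA (an AP-1 site), the CArG box bound by serum response factor, and TATAAA. The windows lie at chr5:172771196-172771445 on the minus strand, chr1:58784048-58784297 on the minus strand, chr12:76031777-76032026 on the minus strand and chr5:138465229-138465478 on the plus strand.
DUSP1: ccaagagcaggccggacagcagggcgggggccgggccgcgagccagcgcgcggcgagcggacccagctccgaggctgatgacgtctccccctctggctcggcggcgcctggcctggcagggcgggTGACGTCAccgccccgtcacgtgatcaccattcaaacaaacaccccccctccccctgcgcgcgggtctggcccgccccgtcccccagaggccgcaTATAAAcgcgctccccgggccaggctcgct
JUN: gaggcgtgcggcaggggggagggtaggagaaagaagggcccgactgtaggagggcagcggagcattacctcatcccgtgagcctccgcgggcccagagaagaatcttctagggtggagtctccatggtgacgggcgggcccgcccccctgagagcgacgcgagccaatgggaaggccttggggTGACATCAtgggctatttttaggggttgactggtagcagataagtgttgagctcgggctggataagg
PHLDA1: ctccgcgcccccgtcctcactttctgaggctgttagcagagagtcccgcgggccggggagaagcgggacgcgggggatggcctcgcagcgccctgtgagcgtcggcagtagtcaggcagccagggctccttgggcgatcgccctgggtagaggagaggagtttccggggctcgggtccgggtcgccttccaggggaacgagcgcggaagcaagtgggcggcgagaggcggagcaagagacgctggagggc
EGR1: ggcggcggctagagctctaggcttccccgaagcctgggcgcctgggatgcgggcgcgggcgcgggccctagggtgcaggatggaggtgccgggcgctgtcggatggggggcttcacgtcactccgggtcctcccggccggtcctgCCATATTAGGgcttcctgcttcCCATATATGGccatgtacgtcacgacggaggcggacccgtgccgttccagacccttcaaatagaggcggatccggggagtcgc
DUSP1 holds the cyclic AMP response element TGACGTCA, which is also a match to TGANNTCA, beginning 125 bases before the start, and TATAAA at 30 bases. JUN holds TGACATCA at 67 bases, the kind of site to which JUN and ATF proteins bind. EGR1 holds a pair of CArG boxes, at 105 and 83 bases. PHLDA1 holds none of the 4 motifs in this window.

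The RefSeq table had an entry for 8 of the 10 members, DUSP4 and IER3 being the others. Of the 8, TGACGTCA occurred in DUSP1 and JUND (at 200 bases), against 1.65% of 35116 windows of this length in the whole table. TGANNTCA, which includes it, occurred in DUSP1, JUN and JUND, against 10.1% of all windows. TGANTCA, found in 6.57% of all windows, occurred in none of the 8. The CArG box, found in 1.16% of all windows, occurred in EGR1. TATAAA occurred in DUSP1 and FOS, against 10.7%. The GC box GGGCGG was found in 42.6% of all windows and in each of the 8 members except DUSP6 and EGR1, and GCGNGGGCG, the site of EGR proteins, was in EGR1 (8.41% of all windows). These are matches of letters in a short window, and elements farther from the start were not searched. A member without a match here may still hold such an element, farther away or spelled differently.

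Values are FPKM, fragments scaled to gene length and to the mapped fragments of the library, as the authors deposited them. Per-library FPKM sums lay between 211148 and 217637, and the number of fragments behind them is unknown. The table lists a gene only where 1 group reached a mean FPKM of 0.5: FOS was listed through the LINC00888 group alone, EGR1 through the empty vector group alone, and the other 7 members through both. Of markers of C4-2B and luminal prostate cells, such as KLK2, KLK3 and HOXB13, 12 of 12 were listed, with summed FPKM between 1467 and 1497 with empty vector and between 1488 and 1517 with LINC00888. Within these near-equal sums, 8 of the 12 were called at a limma adjusted p under 0.05, 3 higher and 5 lower (66.7%, against 13.5% of all genes); their part in the members' results was not tested. Of other cell types, 4 of 12 fibroblast, 1 of 12 leukocyte and 1 of 8 endothelial markers were listed. Their summed FPKM was 7.10 to 7.12, 0.574 to 0.966 and 0.523 to 0.559 with empty vector, and 6.93 to 7.40, 0.709 to 0.732 and 0.499 to 0.537 with LINC00888. The defining markers PTPRC, PECAM1, CDH5 and DCN were not listed. PDGFRB, of the fibroblast list, was listed only through the LINC00888 group, at 0.352, 0.238 and 0.336 FPKM with empty vector and 0.810, 0.560 and 0.581 with LINC00888.

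With LINC00888, the phosphatases DUSP1 and DUSP4 rose by about the same proportion, the AP-1 subunit JUN rose slightly, and PHLDA1 fell. FOS, JUND, EGR1, IER2 and IER3 did not pass the test. Of the 9 members listed, all of which also passed the filter on low values, 3 were called higher and 1 lower at an adjusted p under 0.05 (limma on log2(FPKM + 0.5), two-sided, Benjamini-Hochberg over all genes tested). Among all 11726 genes tested, 13.5% were called, 8.02% higher and 5.46% lower. The members' median log2 fold change was 0.17, against 0.03 over all genes. The balance of calls over all genes, 941 higher and 640 lower, became 750 and 844 with median ratio scaling, 688 and 648 with quantile normalization, and 686 and 669 with cyclic loess. The groups did not overlap in 6 of the 9 members, 5 of them higher and 1 lower with LINC00888. The 5 include FOS, which was listed only through the group where it is higher. Of all genes tested, 38.3% did not overlap, 23.5% being higher and 14.8% lower.

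**Figure D1:**
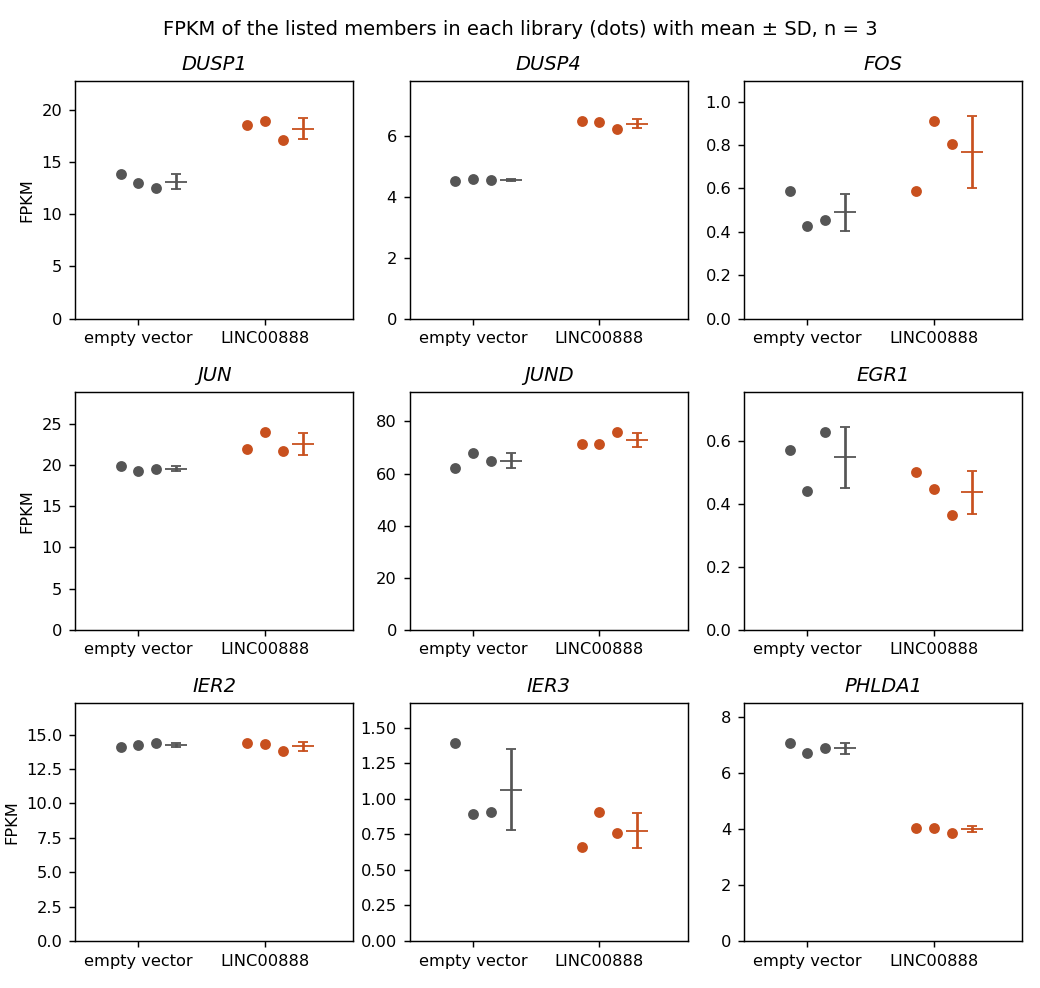
FPKM of each of the 9 listed members in the 3 empty vector and 3 LINC00888 libraries (dots, vertical axes from 0), with the mean and SD of each group beside them. DUSP1 and DUSP4 lie above the empty vector range in all 3 LINC00888 libraries and PHLDA1 below it, while IER2, IER3 and EGR1 overlap.

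DUSP1 encodes a nuclear phosphatase that acts on p38, JNK and ERK. Its FPKM was 13.9, 12.96 and 12.5 with empty vector and 18.5, 19.0 and 17.1 with LINC00888. Every LINC00888 library lay above every empty vector library, and the gap between the groups was wider than the range of either. The mean rose 1.39-fold, from 13.1 ± 0.69 to 18.2 ± 0.99 FPKM (SD, n = 3; log2 fold change 0.46, SE 0.06, limma adjusted p = 0.00889). DUSP1 (ENSG00000120129.5_2) lies on chromosome 5 at 172195093 to 172198198 on the minus strand, in the positions of the deposited table. The only build in the submitters' processing notes is GRCm38, a mouse build, which cannot be that of these human genes, so the build of the positions is not known. Its listed transcript has 4 exons.

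DUSP4 encodes a nuclear phosphatase of the same class, whose gene lies on chromosome 8 and whose listed transcript also has 4 exons. Its FPKM was 4.53, 4.59 and 4.56 with empty vector and 6.52, 6.49 and 6.25 with LINC00888. The libraries of each group lay close together and the groups did not overlap. The mean rose 1.41-fold, from 4.56 ± 0.03 to 6.42 ± 0.15 FPKM (SD, n = 3; log2 fold change 0.45, SE 0.05, limma adjusted p = 0.00522). The 95% intervals of the log2 fold changes, 0.31 to 0.60 for DUSP1 and 0.34 to 0.56 for DUSP4, covered each other's estimate.

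PHLDA1 encodes a pleckstrin homology-like domain protein that rises with ERK signalling and takes part in the control of apoptosis. Its FPKM was 7.07, 6.70 and 6.87 with empty vector and 4.05, 4.04 and 3.87 with LINC00888. All LINC00888 libraries lay below all empty vector libraries, far outside the spread of either group. The mean fell from 6.88 ± 0.19 to 3.99 ± 0.10 FPKM (SD, n = 3), that is by 1.73-fold, with a log2 fold change of -0.72 (SE 0.05, 95% interval -0.84 to -0.60, limma adjusted p = 0.00162). PHLDA1 (ENSG00000139289.13_2) lies on chromosome 12 at 76419227 to 76427712 on the minus strand. The calls of DUSP1, DUSP4 and PHLDA1 held when any 1 of the 6 libraries was left out, with adjusted p up to 0.0394, 0.0267 and 0.0130.

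JUN, a subunit of AP-1 encoded by a single exon, had an FPKM of 19.9, 19.3 and 19.5 with empty vector and 21.95, 24.0 and 21.6 with LINC00888. The groups did not overlap, and LINC00888 library 2 was the highest. The mean rose 1.15-fold, from 19.5 ± 0.33 to 22.5 ± 1.29 FPKM (SD, n = 3; log2 fold change 0.20, SE 0.05), with a limma adjusted p of 0.0481, just under the threshold. Leaving out any of the 6 libraries ended that call (adjusted p 0.0756 to 0.126), as did median ratio scaling (0.0706). JUN (ENSG00000177606.6_2) lies on chromosome 1 at 59246460 to 59249999 on the minus strand.

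JUND, a further JUN protein of AP-1, also encoded by a single exon, was the most highly expressed member, at the 96.2nd percentile of all listed genes. Its FPKM was 62.0, 68.0 and 64.8 with empty vector and 71.4, 71.2 and 76.1 with LINC00888. The groups did not overlap, but the difference between means of 65.0 ± 2.97 and 72.9 ± 2.75 FPKM (SD, n = 3) did not pass (log2 fold change 0.17, 95% interval 0.05 to 0.28, limma adjusted p = 0.0684). It passed in 2 of 15 alternatives, quantile normalization (limma adjusted p = 0.0153) and cyclic loess (0.0175). With median ratio scaling it lay farther from the threshold (0.166). JUND (ENSG00000130522.5_3) lies on chromosome 19 at 18390570 to 18392432 on the minus strand.

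FOS and EGR1, the founding members of the class, were near the lower limit of the table in both groups, at the 2.12nd and 3.15th percentile of listed genes with empty vector. FOS, the dimer partner of JUN, had an FPKM of 0.586, 0.426 and 0.456 with empty vector and 0.587, 0.912 and 0.804 with LINC00888. The lowest LINC00888 library exceeded the highest empty vector library by less than the spread within either group. The ratio of means was 1.57, the largest rise among the members, but FOS was listed only through the LINC00888 group, a selection that favours a rise. The limma fit gave a log2 fold change of 0.35 with a 95% interval of 0.06 to 0.65 and an adjusted p of 0.111. EGR1, a zinc finger factor, had an FPKM of 0.572, 0.442 and 0.629 with empty vector and 0.501, 0.447 and 0.365 with LINC00888. These values overlapped, and the difference did not pass (log2 fold change -0.16, 95% interval -0.41 to 0.09, limma adjusted p = 0.343). EGR1 was listed only through the empty vector group, a selection that favours a fall. FOS (ENSG00000170345.9_3) lies on chromosome 14 at 75745477 to 75748933 and EGR1 (ENSG00000120738.7_2) on chromosome 5 at 137801179 to 137805004, both on the plus strand.

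IER2, a nuclear early response protein, had an FPKM of 14.1, 14.2 and 14.4 with empty vector and 14.4, 14.3 and 13.8 with LINC00888. The groups lay within the same narrow range, and the 95% interval of the log2 fold change was -0.10 to 0.08 (limma adjusted p = 0.912). IER3, an early gene that modulates cell survival and ERK signalling, had an FPKM of 1.39, 0.895 and 0.905 with empty vector and 0.660, 0.908 and 0.759 with LINC00888. Empty vector library 1 stood above the other 5, the groups overlapped and the difference did not pass (log2 fold change -0.28, 95% interval -0.64 to 0.07, limma adjusted p = 0.243). Without empty vector library 1 its log2 fold change was -0.14 (adjusted p = 0.446). IER2 (ENSG00000160888.6_2) lies on chromosome 19 at 13261229 to 13265722 on the plus strand and IER3 (ENSG00000137331.11_2) on chromosome 6 at 30710976 to 30712331 on the minus strand. In GENCODE release 29, DUSP1, IER2, IER3 and PHLDA1 overlap antisense genes on the opposite strand. The libraries keep strand, but whether the counting used it is not given in the sources used here, so reads of these partners cannot be told apart from those of the members.

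**Figure D2:**
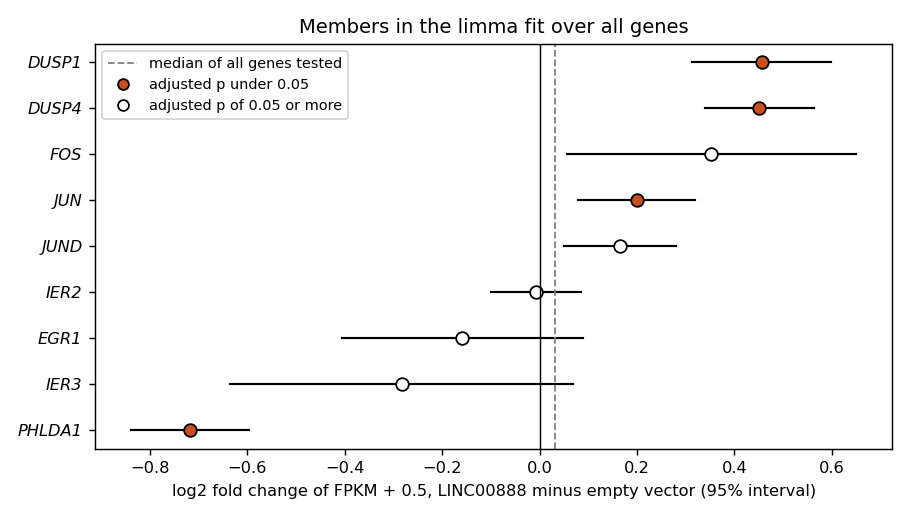
Log2 fold change of FPKM + 0.5 for each listed member, LINC00888 minus empty vector, with its 95% interval from the limma fit over all genes; filled circles have an adjusted p under 0.05, and the dashed line is the median of all genes tested (0.03). DUSP1 and DUSP4 are at 0.46 and 0.45, PHLDA1 is at -0.72, and the intervals of EGR1, IER2 and IER3 span 0.

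No library was the highest or lowest of its group throughout: in the empty vector group, library 1 was the highest for 5 members and library 2 the lowest for 5, and in the LINC00888 group library 3 was the lowest for 6. In the transcript table, each of the 9 members had 1 listed transcript. That of PHLDA1 was called lower, from 9.18 ± 0.22 to 5.16 ± 0.20 FPKM (SD, n = 3, limma adjusted p = 0.0450). Of all 26941 transcripts tested, 0.379% were called in either direction and 0.212% were called lower. Leaving out any 1 library ended the call of the PHLDA1 transcript. Groups did not overlap in 5 of the 9 transcripts, 4 higher and 1 lower, against 19.9% of all transcripts, 10.7% higher and 9.19% lower. The transcript of DUSP1 held the values of its gene (adjusted p = 0.128), and that of DUSP4 was at 5.95 ± 0.03 and 8.37 ± 0.21 FPKM (adjusted p = 0.146). The values of the IER3 transcript were 1.503, 0.752 and 0 FPKM with empty vector and 0.706, 0.953 and 0.412 with LINC00888, so the library listed at 0 held a gene level of 0.905 FPKM.

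None of the other MAP kinase phosphatases tested was called higher. Of 7 named, 6 were listed and tested, 0 rose and 1 fell, with a median log2 fold change of -0.02. DUSP2, a nuclear phosphatase of ERK and p38, fell from 15.5 ± 0.87 to 12.5 ± 0.85 FPKM (SD, n = 3; limma adjusted p = 0.0322); any left-out library ended this call (0.0518 to 0.0874). DUSP16, which acts on JNK and p38, was at 12.7 ± 0.12 and 14.1 ± 0.41 FPKM (adjusted p = 0.0627). The level of DUSP9 was 7.05 and 7.02 FPKM, that of DUSP8 3.77 and 3.65, that of DUSP7 3.10 and 3.08 and that of DUSP10 2.35 and 2.27, each with overlapping groups.

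Per length, the order of the phosphatases with empty vector was DUSP2, DUSP1, DUSP16, DUSP9, DUSP4, DUSP8, DUSP7 and DUSP10. Of neighbours in that order, only DUSP1 and DUSP16 overlapped between libraries (12.5 to 13.9 and 12.6 to 12.8 FPKM). With LINC00888, DUSP1 was the highest at 17.1 to 19.0 FPKM, followed by DUSP16 (13.7 to 14.5) and DUSP2 (11.6 to 13.3), which did not overlap each other. DUSP4, at 6.25 to 6.52 FPKM, then lay just under the lowest library of DUSP9 (6.57). Of 18 atypical dual-specificity and related phosphatases, 14 were tested and 0 were called, and the median log2 fold change was 0.07. The most abundant over the 6 libraries were DUSP23 (17.1 and 16.1 FPKM, adjusted p = 0.384) and STYX (13.1 and 13.75, adjusted p = 0.866).

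Among 16 other AP-1 and related factors, 11 were tested, and the JUN and FOS proteins among them are described. JUNB, the third JUN protein, had an FPKM of 28.4, 27.8 and 28.4 with empty vector and 24.2, 27.3 and 22.9 with LINC00888 and did not pass (log2 fold change -0.19, limma adjusted p = 0.115). In both groups JUND was the most abundant of the JUN and FOS proteins. JUNB stood above JUN in each empty vector library, and also in each LINC00888 library, where the ranges of JUNB and JUN overlapped. FOSL2 lay at 2.67 ± 0.23 and 2.76 ± 0.12 FPKM (adjusted p = 0.748), above FOS in every library, and FOSB and FOSL1 were not listed.

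Other early response genes moved in both directions. Of 44 named, 34 were tested, 3 rose and 5 fell, and the median log2 fold change was -0.01. The falls, in order of p, included the matrix protein gene CYR61 (4.97 ± 0.18 to 3.66 ± 0.04 FPKM, SD, n = 3, limma adjusted p = 0.0091) and ID3, an inhibitor of basic helix-loop-helix factors (43.4 ± 1.06 to 36.6 ± 0.64, adjusted p = 0.0114). The NF-kB inhibitor NFKBIA (54.5 to 41.9 FPKM) and serum response factor itself, SRF (12.5 to 10.8), fell as well. The antiproliferative gene BTG2 (12.1 to 14.9) and the reprogramming factor KLF4 (3.10 to 4.15) rose. The kinases SIK1 (3.41 to 4.54 FPKM, higher) and PLK3 (1.33 to 0.908, lower) were the others called. Each left-out library ended the calls of SRF (adjusted p up to 0.0887) and PLK3 (0.117). Leaving out 1 library other than empty vector library 1 or LINC00888 library 3 ended that of BTG2 (0.0761), 1 other than empty vector library 2 that of KLF4 (0.0819), 1 other than LINC00888 library 3 that of SIK1 (0.119), and 1 other than empty vector library 1 or 3 that of NFKBIA (0.078). CYR61 and ID3 kept theirs. Quantile normalization and cyclic loess each ended those of KLF4 and SIK1. EGR2, EGR3, EGR4, NR4A2 and NR4A3 were not listed.

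Both PHLDA relatives of PHLDA1 were called lower as well. PHLDA2, an imprinted growth regulator, went from 69.6 ± 0.68 to 60.6 ± 1.95 FPKM (SD, n = 3; log2 fold change -0.20, limma adjusted p = 0.0190). PHLDA3, which binds phosphoinositides and inhibits AKT, went from 9.51 ± 0.23 to 7.68 ± 0.24 FPKM (log2 fold change -0.29, adjusted p = 0.0143). All 3 PHLDA genes, the member PHLDA1 among them, were called lower, as were 5.46% of all genes tested. Of IER5, IER5L and IER3IP1, grouped with IER2 and IER3, none was called. PHLDA2 stayed called only when LINC00888 library 2 was the one left out (otherwise up to 0.0668). PHLDA3 lost its call when empty vector library 3 or LINC00888 library 2 was left out (up to 0.0551). The fall of PHLDA1 was the largest of the 3 on the log2 scale.

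Of the pathway that feeds the members, 3.23% of the RAS to ERK genes tested and 3.85% of the JNK, p38 and ERK5 genes were called. The share was 20% for growth factor receptors, PDGFRB included, and 13.5% for all genes. In the RAS to ERK list, 31 of 34 genes were tested, 1 rose and 0 fell. The riser was the ribosomal S6 kinase RPS6KA2 (6.72 to 8.36 FPKM, limma adjusted p = 0.0354), and the ERK kinase MAPK3 (8.28 and 8.23) had overlapping groups. In the JNK, p38 and ERK5 list, 26 of 27 were tested, 1 rose, MAP2K5 (3.73 to 4.62, adjusted p = 0.0332), and 0 fell, with a median log2 fold change of 0.12. Among growth factor receptors 10 of 17 were tested and 2 were called higher, both at low levels, FGFR1 (0.564 to 0.996) and PDGFRB (0.308 and 0.650). PDGFRB was below 0.5 FPKM in all 3 empty vector libraries. It entered the table and the test only through the LINC00888 group, a selection that favours a rise, so its call supports nothing. Each left-out library ended the calls of RPS6KA2 and MAP2K5 (adjusted p up to 0.102 and 0.101), each but LINC00888 library 3 that of FGFR1 (0.0801), and each empty vector library that of PDGFRB (0.0944), which was not tested without a LINC00888 library. Quantile normalization ended those of MAP2K5 and PDGFRB, and cyclic loess those of all 3 of MAP2K5, PDGFRB and FGFR1.

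Feedback inhibitors and outputs of ERK signalling were tested in 11 of 19 cases, and 0 rose and 1 fell. SPRED2, which keeps RAF from being activated, fell from 5.20 ± 0.12 to 4.24 ± 0.12 FPKM (SD, n = 3; limma adjusted p = 0.0237); any left-out library ended this call (up to 0.0766). The ERK targets SPRY4, ETV4, ETV5 and ETV1 were not listed, nor was DUSP6, genes that are known ERK targets. SPRY2, an inhibitor of receptor signalling, was at 0.813 ± 0.15 and 1.15 ± 0.05 FPKM with groups that did not overlap, and did not pass (adjusted p = 0.072).

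Among SRF, ETS and CREB regulators, 15 of 15 were tested, and SRF fell while CRTC1, a coactivator of CREB, rose from 3.31 ± 0.08 to 4.28 ± 0.38 FPKM (SD, n = 3; limma adjusted p = 0.0348). CRTC1 stayed called only when LINC00888 library 3 was the one left out (otherwise up to 0.102), and both quantile normalization and cyclic loess ended its call. Of 26 genes of AU-rich and poly(A) mRNA decay, all tested, BTG2 and PAN2 rose and 0 fell. PAN2, the catalytic subunit of a deadenylase, went from 7.47 ± 0.34 to 10.98 ± 0.22 FPKM (adjusted p = 0.00392) and kept its call without any 1 library. Over all related lists together, with each gene counted once and the members left out, 19 of 180 genes were called (10.6%), 10 higher (PDGFRB among them) and 9 lower, against 13.5% of all genes.

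**Figure D3:**
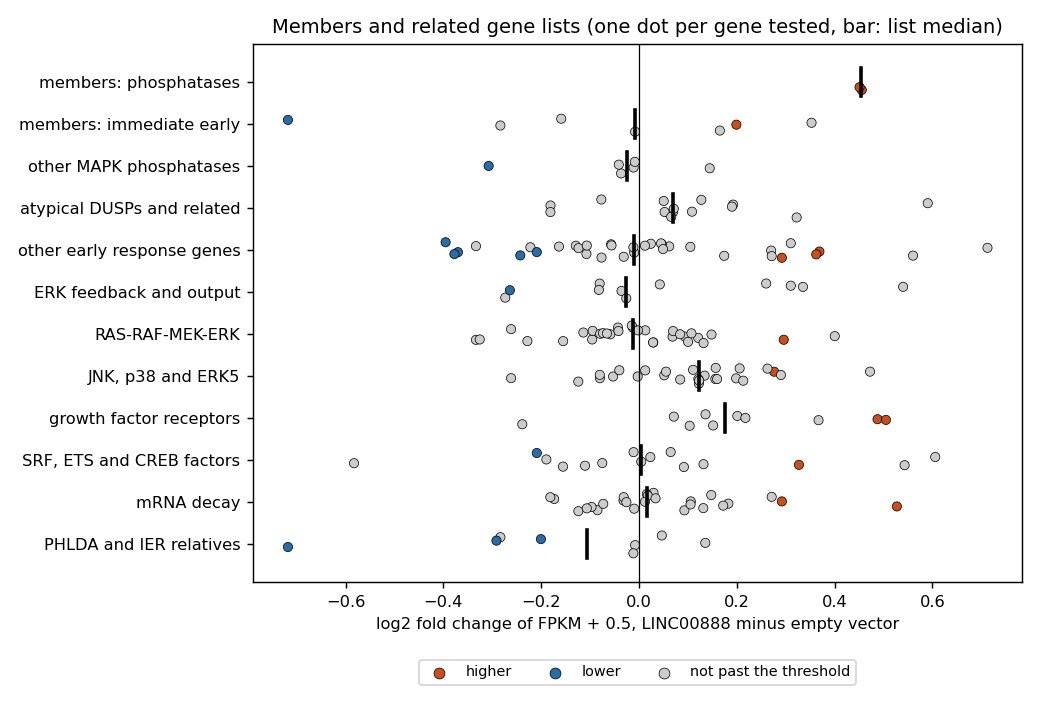
Log2 fold change of FPKM + 0.5, LINC00888 minus empty vector, for each tested gene (dots) of the members and of the related lists other than AP-1 factors, with the list median as a bar; the bottom list includes PHLDA1, IER2 and IER3. The 2 member phosphatases sit near 0.45, apart from the other MAP kinase phosphatases (median -0.02), and PHLDA1 is the lowest dot at -0.72.

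The genes whose values over the 6 libraries were most like those of a called member were found by the root mean square difference of centred log2(FPKM + 0.5). For DUSP1 these were LAMC3 (0.032), ELF3 (0.033) and SYT7 (0.035). For DUSP4 they were THEM4 (0.020), FAM155B (0.024) and TMPRSS2 (0.024). For JUN they were NUAK2 (0.017), SP100 (0.018) and ZIC2 (0.022), none of which was itself called. For PHLDA1 they were MAOA (0.050), ADGRG6 (0.050) and SH3BGRL (0.054). The 6 points fall in 2 groups, so the measure includes the difference between the groups.

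**Figure D4:**
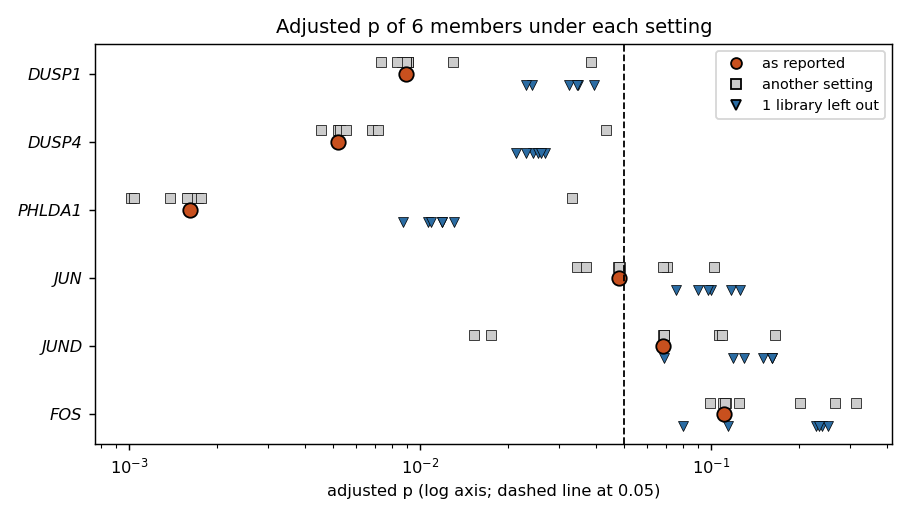
Adjusted p (log axis) of 6 members as reported (circles), under other settings (squares) and with 1 library left out (triangles); the dashed line is the threshold of 0.05. DUSP1, DUSP4 and PHLDA1 stay below 0.05 in each, JUN lies on both sides, JUND passes in 2 settings and FOS in none.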

How the data were processed

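RNA from 3 empty vector and 3 LINC00888 libraries was polyA-selected and sequenced strand-specifically, per the labels' protocols. Tools named by the submitters' processing notes are cutadapt, FastQC, StringTie and HISAT2, with no version. The notes also give the mouse build GRCm38, although the deposited identifiers are human. The authors deposited FPKM values per library, per the file headers. Every listed gene reached 0.5 in the mean of 1 group or both. Fragment numbers are unknown, so no counting intervals were computed.

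Genes reaching 0.5 FPKM in 3 or more of the 6 libraries were kept and taken as log2(FPKM + 0.5), without rescaling. Groups were compared with limma 3.58.1 in R 4.3.3 (moderated with a trend and robustly), by two-sided tests with p-values adjusted over all genes by Benjamini-Hochberg and a threshold of 0.05. Transcripts were fitted likewise. The pseudocount understates the log2 fold changes of low genes. The fit was checked on simulated data. Named were all members, from each related list up to 6 genes past the threshold (or, with none, the 2 most abundant), the 3 most similar profiles to each called member, and the members' transcripts; other genes named were chosen after their values were seen. Members and lists were chosen with earlier results of these data known. Alternatives were other pseudocounts, filters and scalings, plain eBayes, a block for the replicate number, and leaving out each library. Some genes of the related lists are not reported here.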

Additional observations from a re-analysis of the deposited data

How the results depend on the processing

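DUSP1, DUSP4 and PHLDA1 kept their direction and their call under each of 15 alternatives. JUN kept its direction in each and lost its call in 9, among them eBayes without trend and robust (JUN adjusted p = 0.0682), which left 2 members higher and 1 lower. The log2 fold change of IER2 ranged from -0.020 to 0.011 when 1 library was left out, and was above 0 without LINC00888 library 3. Over all genes, leaving out 1 library left 536 to 815 calls (284 to 487 higher, 252 to 329 lower), 2 members higher and 1 lower, 2 to 6 related list genes higher and 3 to 4 lower, and 0 member transcripts. Quantile normalization and cyclic loess left 5 and 4 related list genes higher. No filter, and eBayes without trend and robust, left 0 member transcripts. Over all genes tested, deviations of same-numbered libraries from their group means correlated at 0.04, 0.02 and -0.03. Not each library correlated best with its own number. Yet MYC was high in library 1 of both groups (48.3 FPKM with empty vector, 39.3 with LINC00888). Whether same-numbered libraries shared a preparation was not tested, and the replicate number was used as a block in 1 alternative. With that replicate block, 429 genes passed (229 higher, 200 lower), with DUSP1, DUSP4 and PHLDA1 among them (adjusted p = 0.0387, 0.0433 and 0.0331), 2 related list genes higher, 0 lower and 0 member transcripts. Fewer libraries or residual degrees of freedom entered the left-out and blocked fits. The cause of the changes, in these fits or in the other alternatives, was not tested. FOS, EGR1 and IER3 lie near the limit of the table, where depth would matter most, and the depth is unknown.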

Other observations

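Ratios of FPKM within a library do not change with a scaling factor applied to that library; 3 were taken after the values were seen and are given without a test. The ratio of JUN to JUNB was 0.702, 0.693 and 0.686 with empty vector and 0.908, 0.881 and 0.945 with LINC00888. The ratio of DUSP1 to DUSP2 was 0.842, 0.875 and 0.819 with empty vector and 1.39, 1.52 and 1.47 with LINC00888, so the more abundant of these phosphatases per length was DUSP2 in one group and DUSP1 in the other. The ratio of DUSP4 to PHLDA1 was 0.641, 0.686 and 0.663 with empty vector and 1.61, 1.605 and 1.62 with LINC00888.

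Among early response genes outside the members, ATF3, a stress-induced AP-1 partner, differed widely between libraries of the empty vector group (13.95, 11.2 and 5.24 FPKM) and little between those of the LINC00888 group (9.71, 9.22 and 9.42). MYC, a growth-promoting transcription factor, differed more: it was at 48.3, 3.05 and 3.64 FPKM with empty vector and at 39.3, 3.76 and 3.95 with LINC00888, and library 1 was the high one in both groups. TGFA, a ligand of EGFR, was at 0.672 ± 0.20 and 1.19 ± 0.11 FPKM (SD, n = 3) with groups that did not overlap, and just missed the threshold (limma adjusted p = 0.0501), while EGFR was at 18.2 ± 4.03 and 20.6 ± 1.47 FPKM (adjusted p = 0.464). These genes were chosen after their values were seen.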
